A study of Mus musculus with 9 samples.

Results

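The oligodendrocyte, astrocyte and microglia genes described here are 39 protein-coding genes fixed by name: 17 of the oligodendrocyte lineage, 12 of astrocytes and 10 of microglia. All 39 were found in GENCODE vM21 on the GRCm38 (mm10) mouse genome. A differentially methylated region (DMR) of the authors' deposited list was counted for a gene when it overlapped the gene span or lay within 10 kb of it. By this rule 22 of the 12949 listed DMRs fell at 14 of the 39 genes. Methylated DNA immunoprecipitation (meDIP), which enriches DNA fragments with an antibody against methylated cytosine, was sequenced from the hypothalamus of male C57/Bl6 pups at P6. The 3 control and 3 MMS libraries were each a pool of several animals. MMS (modified maternal separation) pups were taken from the dam and repeatedly turned onto their backs during a daily session from P4 to P6, and control pups were males of the same litters. A control input, an MMS input and an IgG library entered the authors' processing; they were identified by their titles, since the labels name the same antibody for all 9 libraries.

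Oligodendrocytes wrap axons in myelin and arise from dividing precursors, which in the first postnatal week still far outnumber myelinating cells in the rodent forebrain. Astrocytes clear glutamate and potassium, supply metabolites and are joined by gap junctions. Microglia are the resident phagocytes, depend on signals through the receptor Csf1r and prune synapses with the help of complement. Methylation at CpG sites in gene bodies and regulatory DNA differs between these cell types, so tissue DNA is a mixture. A change in the share of a cell type and a change in methylation within its cells cannot be told apart in these pools.

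The deposited values are log2 means of normalised reads for each group, printed here as normalised reads (2 raised to that value) or as log2 differences, always MMS minus control. The lowest control mean in the list is 0.889 normalised reads (log2 -0.17) and the lowest MMS mean 0.847 (log2 -0.24). Where a group sits at its lowest value, the size of the difference is set in part by that value. No value per pool was used, so the spread between pools cannot be given and no test between groups was made here. Every DMR is in the list because the authors' own comparison called it.

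The reference sequence at the DMRs with the largest difference in each direction is shown first, because methylated cytosines lie mostly at CpG sites. Each is on the plus strand of GRCm38, in lower case with CpG sites in capitals, and where a DMR is longer than 300 bases its centre is shown. The oligodendrocyte lineage gives a DMR in intron 1 of Cspg4 (chr9:56876780-56877079, higher in MMS, 7 CpG sites in the bases shown) and one in Pdgfra (chr5:75161375-75161674, higher in control, 1 CpG site beside a run of CA repeats). Astrocyte genes give a DMR at exon 13 of Aldh1l1 (chr6:90576779-90576937, higher in MMS, 3 CpG sites, intronic bases only) and one upstream of the same gene (chr6:90482755-90483054, higher in control, 5 CpG sites). For microglia the DMR upstream of Mertk (chr2:128688427-128688726, higher in control, 6 CpG sites) is shown, as no DMR at a microglial gene was higher in MMS.
Cspg4 intron 1: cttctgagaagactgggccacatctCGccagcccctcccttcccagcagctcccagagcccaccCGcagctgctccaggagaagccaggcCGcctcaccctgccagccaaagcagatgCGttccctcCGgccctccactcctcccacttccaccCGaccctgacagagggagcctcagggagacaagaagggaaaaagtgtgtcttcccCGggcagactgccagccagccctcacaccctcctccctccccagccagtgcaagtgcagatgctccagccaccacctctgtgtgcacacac
Pdgfra intron 1: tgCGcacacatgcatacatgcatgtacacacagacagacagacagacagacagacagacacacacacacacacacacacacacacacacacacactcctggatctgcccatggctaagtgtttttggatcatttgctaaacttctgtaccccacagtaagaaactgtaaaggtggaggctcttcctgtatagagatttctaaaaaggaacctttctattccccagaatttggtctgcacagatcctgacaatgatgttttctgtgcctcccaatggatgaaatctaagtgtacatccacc
Aldh1l1 intron 13: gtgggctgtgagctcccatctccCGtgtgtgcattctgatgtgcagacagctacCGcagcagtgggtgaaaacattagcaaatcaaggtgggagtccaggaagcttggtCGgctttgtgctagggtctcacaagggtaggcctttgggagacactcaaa
Aldh1l1 upstream: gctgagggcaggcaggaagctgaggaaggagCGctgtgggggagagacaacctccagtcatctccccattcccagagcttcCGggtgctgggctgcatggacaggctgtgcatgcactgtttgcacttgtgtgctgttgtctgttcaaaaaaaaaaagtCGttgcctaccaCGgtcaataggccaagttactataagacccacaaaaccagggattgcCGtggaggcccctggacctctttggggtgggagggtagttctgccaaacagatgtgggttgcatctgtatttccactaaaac
Mertk upstream: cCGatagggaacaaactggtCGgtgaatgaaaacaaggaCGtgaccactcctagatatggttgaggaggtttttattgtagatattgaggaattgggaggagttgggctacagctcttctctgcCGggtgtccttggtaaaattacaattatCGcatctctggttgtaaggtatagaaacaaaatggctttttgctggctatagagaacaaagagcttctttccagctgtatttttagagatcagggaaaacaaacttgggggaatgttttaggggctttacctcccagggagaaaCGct

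Of the 22 DMRs, 13 were higher in MMS (59.1%) and 9 higher in control, beside 62.6% higher in MMS over all listed DMRs. The DMRs of the oligodendrocyte lineage were higher in MMS in 8 of 11 cases, those of astrocyte genes in 5 of 9, and both at microglial genes were higher in control. Tcf7l2 alone supplied 4 of the 8 in the oligodendrocyte lineage, where 4 genes had DMRs higher in MMS and 3 had DMRs higher in control. Differences ran from -4.56 to 5.96 on the log2 scale. DMRs higher in MMS had a median difference of 3.30, where all such DMRs in the list had 3.43, and those higher in control had -1.80 beside -1.73. The control mean was at its lowest value in 6 of the 13 DMRs higher in MMS (46.2%). It was within 0.5 of that value in 52.7% of all listed DMRs higher in MMS. The MMS mean was near its lowest value in 1 of the 9 higher in control, beside 4.60% of all listed DMRs higher in control. The differences at glial genes were thus close in size to those of the list as a whole.

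**Figure D1:**
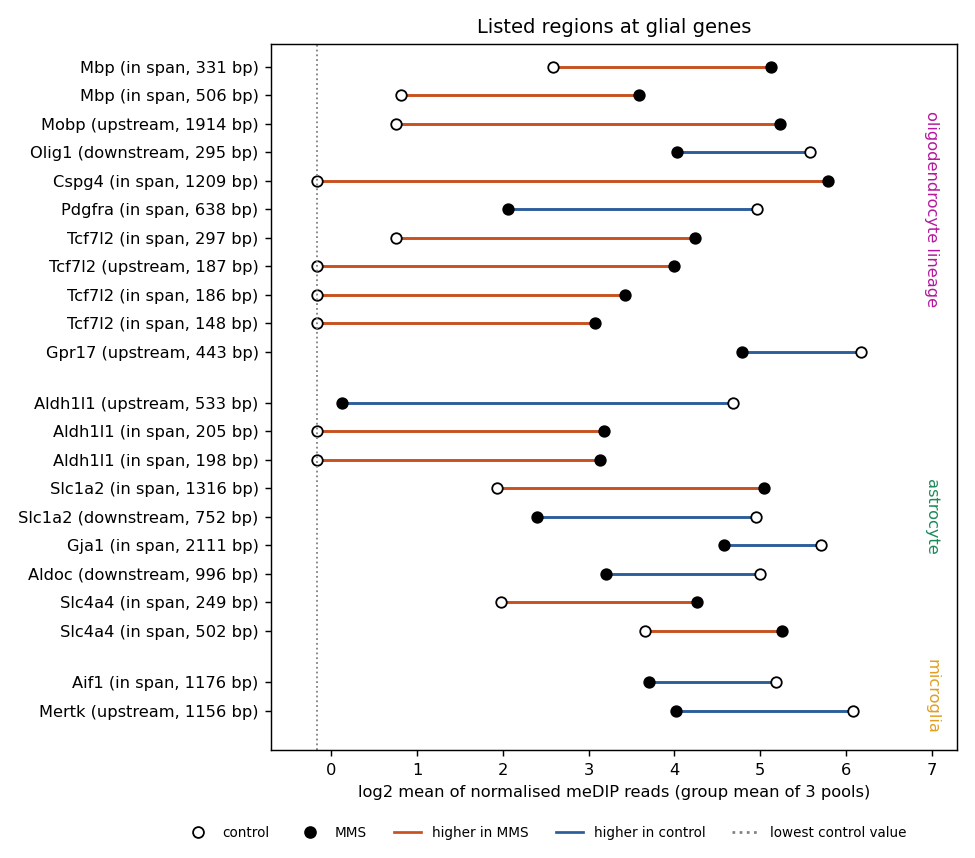
Group means of the 22 DMRs at glial genes, one row per DMR with its place and width, on the log2 scale of normalised meDIP reads. Open circles are the control mean and filled circles the MMS mean of 3 pools each, so no error bar can be drawn, and the dotted line is the lowest control value. Control sits on that line in 6 DMRs, 4 of them at oligodendrocyte lineage genes and 2 at Aldh1l1.

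A DMR within 10 kb was found at 14 of 39 glial genes (35.9%), and at 28.6% of 21938 protein-coding genes by the same rule. DMRs higher in MMS were found at 7 of the 39 genes and at 20.2% of all genes, and DMRs higher in control at 9 of the 39 and at 13.3% of all. Gene length bears on these shares, since a longer gene has more room for a DMR. Among genes under 10 kb, 4 of 15 glial genes had one, beside 14.5% of all genes of that length. Between 10 and 30 kb it was 1 of 7 beside 23.4%, and between 30 and 100 kb 3 of 9 beside 38.3%. At 100 kb or longer 6 of 8 had one, beside 66.3%. The counts lay above the background in the shortest and longest classes and below it in the others, and each rests on few genes.

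**Figure D2:**
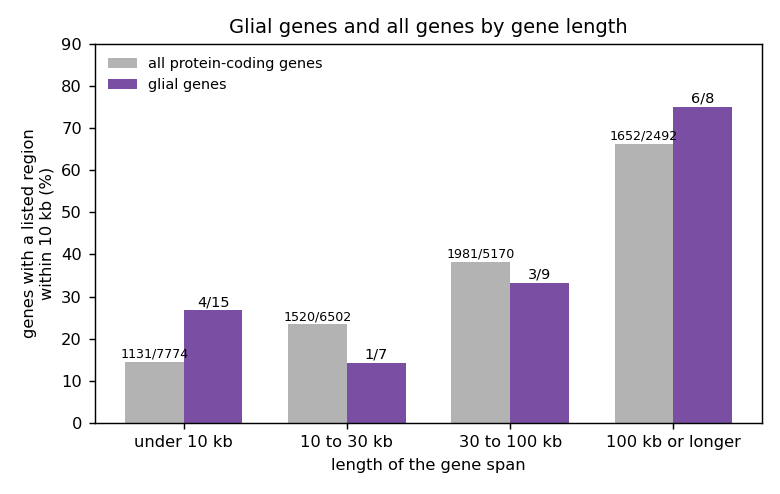
Percentage of genes with a listed DMR within 10 kb, by length of the gene span, for all protein-coding genes (grey) and for the 39 glial genes (purple). Bars start at 0 and carry the counts. Both sets rise to their highest share at 100 kb or longer, 66.3% and 75.0%.

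Myelin protein genes were represented by 3 DMRs, all higher in MMS. Mbp, which encodes myelin basic protein and spans 110 kb of chromosome 18 (82475146 to 82585637), held a pair of them. The one from 82571487 to 82571817, in intron 2 of the principal transcript, had 6.02 normalised reads in control and 35.0 in MMS, a log2 difference of 2.54. It has 10 CpG sites in 331 bp. The other, from 82526651 to 82527156, had log2 means of 0.81 in control and 3.59 in MMS (2.78) and lies 27.6 kb upstream of that transcript's start, in an intron of the longer Mbp transcripts. Mobp, a gene for another protein of compact myelin, had its DMR upstream of the start, on chromosome 9 from 120146667 to 120148580. That region is 1914 bp wide with 26 CpG sites, and its normalised reads were 1.68 in control and 37.5 in MMS, a 22.3-fold ratio. No listed DMR lay within 10 kb of Mog, Mag or Cnp, which encode further myelin proteins. The nearest DMR to Mag was 11.3 kb away and those to Cnp and Mog 119 and 152 kb away.

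Genes of oligodendrocyte precursors differed in direction. Cspg4, which encodes the NG2 proteoglycan of precursors and of pericytes, had the largest difference of the glial genes, 5.96 on the log2 scale. Its DMR lies on chromosome 9 from 56876326 to 56877534, 11.9 kb into the gene in intron 1 of 10 exons, with the lowest control value of 0.889 normalised reads and 55.3 in MMS. Pdgfra, the receptor through which platelet-derived growth factor keeps precursors dividing, went the other way. The region on chromosome 5 from 75161207 to 75161844 had 31.1 normalised reads in control and 4.17 in MMS, a difference of -2.90. By its centre this was the 1 DMR in a promoter of a glial gene, 309 bp upstream of the start of a minor Pdgfra transcript annotated with an incomplete 3′ end. In the principal transcript it is intron 1, 5.6 kb past the start. It held 4 CpG sites in 638 bp (0.627 per 100 bp). For Gpr17, a receptor of committed precursors, the DMR on chromosome 18 from 31957781 to 31958223 had 72.5 normalised reads in control and 27.7 in MMS (-1.39). It lies 8145 bp upstream of Gpr17 and overlaps the neighbouring gene Lims2.

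Transcription factors of the lineage were covered by Olig1 and Tcf7l2. Downstream of Olig1, a basic helix-loop-helix factor, the DMR on chromosome 16 from 91279549 to 91279843 had 47.8 normalised reads in control and 16.3 in MMS (-1.55). It lies 7616 bp past Olig1 and 50.9 kb from Olig2, its neighbour and the factor that specifies the lineage, and is the DMR nearest to both. Tcf7l2, a Wnt pathway factor of newly formed oligodendrocytes that is also expressed in neurons of the diencephalon, held 4 DMRs, the most of any glial gene here, all higher in MMS. On chromosome 19 the DMR from 55765874 to 55766170, in intron 3, had 1.68 and 18.9 normalised reads in control and MMS. The other 3 had control at 0.889 and MMS at 16.0 (55738995 to 55739181, upstream), 10.8 (55842559 to 55842744, intron 4) and 8.40 (55777087 to 55777234, intron 3). All 4 were short, from 148 to 297 bp. The upstream one is repeat sequence over 93.0% of its length, with 6301 alignments of at least 100 bp and 95% identity in the reference, itself included. The one in intron 4 overlaps the noncoding gene Ppnr and has 0 CpG sites. Myrf, the factor that switches on myelin genes, had no DMR within 10 kb (nearest 96.1 kb).

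Ugt8a, Opalin, Ermn, Enpp2 and Bcas1, other genes of differentiating or myelinating oligodendrocytes, also had none. Their nearest DMRs lay 17.4 kb (Bcas1) to 530 kb (Ugt8a) away. With Mog, Mag, Cnp, Olig2 and Myrf these make the 10 of 17 oligodendrocyte lineage genes without a DMR.

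**Figure D3:**
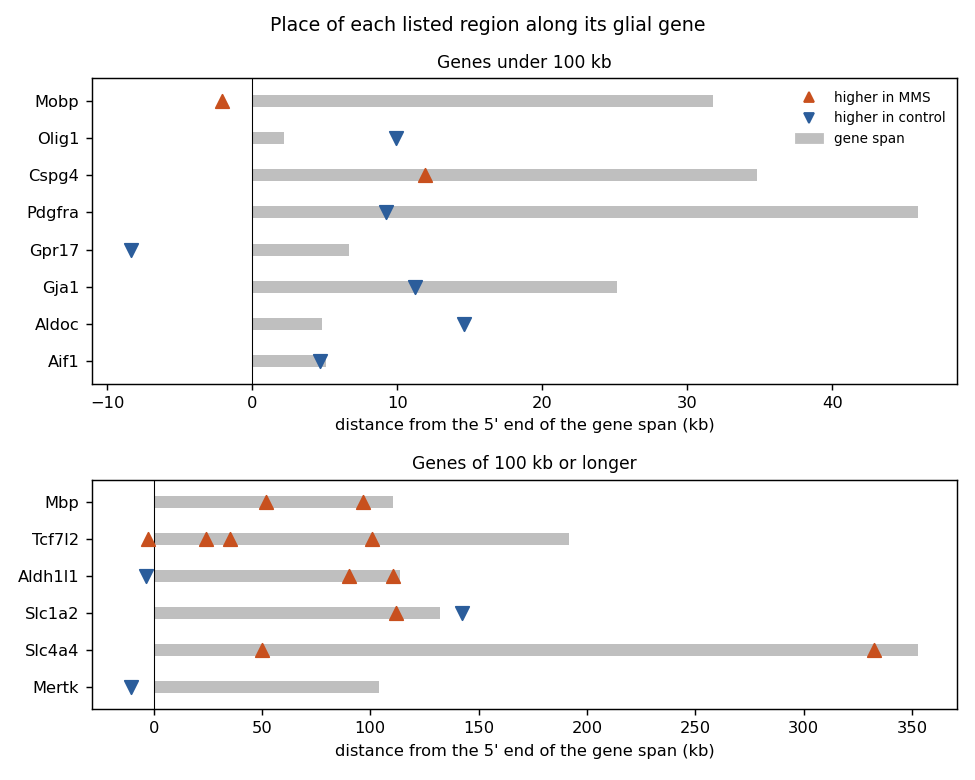
Place of each DMR along its gene, in kb from the 5′ end of the gene span, for genes under 100 kb (top) and of 100 kb or longer (bottom). Grey bars are gene spans, upward triangles DMRs higher in MMS and downward triangles DMRs higher in control. Of the 14 DMRs inside spans 11 point up, and of the 8 outside 6 point down.

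Among astrocyte genes of transport and glutamate metabolism, DMRs were found at Slc1a2 and Slc4a4. Slc1a2, which encodes the main glutamate transporter of astrocytes (GLT-1), had one of each on chromosome 2. In intron 9, from 102769989 to 102771304, normalised reads were 3.81 in control and 33.1 in MMS (3.12). Past the end of the gene, from 102800715 to 102801466, they were 30.9 and 5.28 (-2.55). That DMR lies nearer to the gene Cd44 than to Slc1a2. The related transporter Slc1a3 (GLAST) had no DMR within 175 kb. Slc4a4, a sodium bicarbonate cotransporter, is the longest of the glial genes (353 kb) and had 2 DMRs on chromosome 5, both intronic and higher in MMS. From 89219077 to 89219325 there were 3.94 normalised reads in control and 19.2 in MMS (2.28), and from 88936652 to 88937153 there were 12.6 and 38.1 (1.59). The second has the highest control mean of the DMRs at glial genes that were higher in MMS, so its 3.01-fold ratio does not rest on the lowest value. The water channel gene Aqp4 and the glutamine synthetase gene Glul had no DMR within 10 kb (nearest 146 and 53.4 kb).

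Gja1, which encodes the gap junction protein connexin 43, had the widest of the 22 DMRs and the smallest difference. The region on chromosome 10 from 56387500 to 56389610 spans 2111 bp, of which 2077 are exonic and 1146 coding, with 60 CpG sites. Normalised reads were 52.3 in control and 23.9 in MMS, a difference of -1.13 on the log2 scale or a 2.19-fold ratio. It was also the 1 DMR at a glial gene with its centre in coding sequence of that gene.

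Aldh1l1, a folate enzyme used as a pan-astrocyte marker, held 3 DMRs on chromosome 6. Upstream, from 90482639 to 90483171, there were 25.6 normalised reads in control and 1.09 in MMS (-4.56), the largest difference toward control among the glial genes. Inside the gene, from 90576733 to 90576937 and from 90596719 to 90596916, control was at 0.889 and MMS at 9.06 and 8.75 (3.35 and 3.30). Each of these short regions spans the edge of a coding exon, with 46 and 49 coding bases. The upstream DMR lies 3256 bp from the GENCODE span but 67.9 kb upstream of the principal transcript, so it is near Aldh1l1 only by the longest annotated transcripts, and the transcription factor gene Klf15 is within 10 kb of it. Aldoc, the brain aldolase, had a DMR 9319 bp past its end on chromosome 11 (78337100 to 78338095), inside the gene Pigs, with 32.0 normalised reads in control and 9.19 in MMS (-1.80). Gfap, S100b, Ndrg2 and Fabp7, which encode an intermediate filament protein, a calcium-binding protein, a hydrolase-like protein and a lipid-binding protein, had none within 10 kb. With Aqp4, Slc1a3 and Glul they are the 7 of 12 astrocyte genes without a DMR.

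Microglial genes had DMRs at 2 of 10 genes, beside 28.6% of all protein-coding genes and 14.5% of those under 10 kb. They are the shortest of the 3 groups, with a median length of 7.27 kb beside 31.8 kb for the oligodendrocyte lineage and 17.5 kb for astrocytes. Aif1, which encodes the calcium-binding protein Iba1, had a DMR over its 3′ end on chromosome 17 from 35170795 to 35171970. It had log2 means of 5.19 in control and 3.70 in MMS (-1.49), and 543 of its 1176 bp are exonic. Mertk, a receptor for engulfing dying cells that astrocytes use as well, had one upstream on chromosome 2 from 128688000 to 128689155, with 67.6 and 16.2 normalised reads (-2.06). That region has 6 alignments in the reference, itself included, the longest elsewhere over 207 bp. It lies nearer to the gene Anapc1 than to Mertk. The chemokine receptor gene Cx3cr1, the purinergic receptor gene P2ry12, Tmem119, Csf1r, Trem2 and the complement genes C1qa, C1qb and C1qc had no DMR within 10 kb. The 3 complement genes are neighbours on chromosome 4 and share the nearest DMR, 18030 bp from C1qa, the closest of them, with log2 means of 1.06 in control and 4.10 in MMS.

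The limit of 10 kb decided membership closely in a few cases. Slc1a2 and Mertk had DMRs just inside it, at 9931 and 9801 bp. Csf1r and Mag had their nearest DMRs just outside, at 10407 and 11264 bp, both higher in control (log2 means 5.46 and 3.30 at Csf1r, 5.28 and 3.20 at Mag).

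The direction of the DMRs was counted by place. Inside gene spans 11 of 14 DMRs were higher in MMS, and outside them, within 10 kb, 2 of 8. Over all listed DMRs the share higher in MMS was 62.0% inside protein-coding gene spans and 62.1% outside them within 10 kb. This division was made after the values were seen and was not tested. Tcf7l2 holds 3 of the 11, and 4 of the 8 outside DMRs lie nearer to another protein-coding gene.

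**Figure D4:**
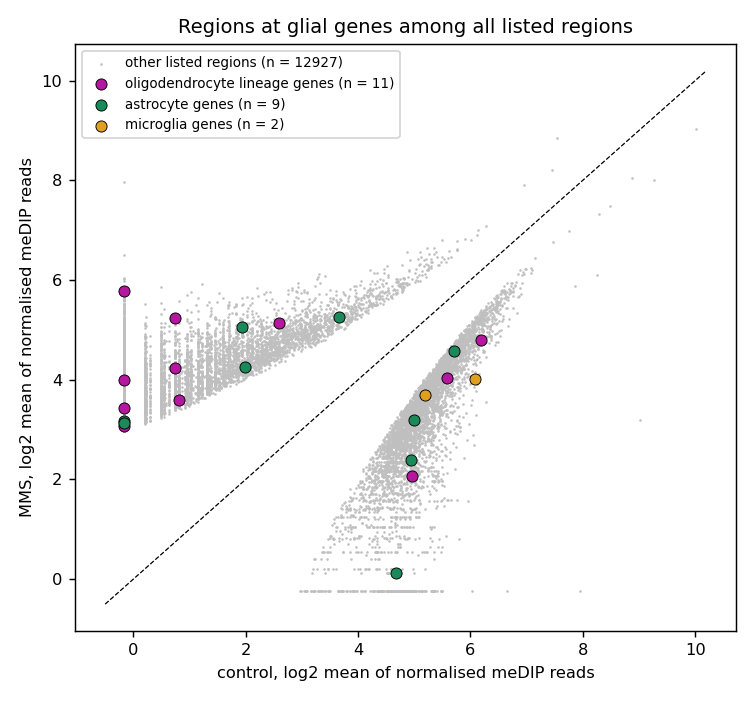
Control mean against MMS mean of each listed DMR on the log2 scale of normalised meDIP reads, with the DMRs at glial genes coloured by cell class and the others in grey. The dashed line marks equal means, and the empty band along it holds regions that the authors' comparison did not call. DMRs at glial genes lie within the range of the rest, and both at microglial genes fall below the line.

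In sequence the DMRs at glial genes had a median of 1.94 CpG per 100 bp (0 to 3.37), beside 1.32 over all listed DMRs and 1.41 over those within 10 kb of a protein-coding gene. Median GC content was 49.5% for those higher in MMS and 50.5% for those higher in control. Over the list it was 47.2% and 47.7%, and near protein-coding genes 47.9% and 48.2%. At the median 13.6% of their length was repeat sequence, beside 20.6% over the list and 17.9% near protein-coding genes. DMRs higher in MMS had a median width of 297 bp at glial genes, 516 bp over the list and 530 bp near protein-coding genes. Those higher in control had 752, 596 and 608 bp. By centre, 12 of the 22 lay in introns of any gene, 4 in exons, 1 in a promoter and 5 between genes. Among the exonic ones only that of Gja1 had its centre in an exon of the glial gene. The exons at Gpr17, Tcf7l2 and Aldh1l1 belong to Lims2, Ppnr and Gm15756, and the introns at Olig1 and Aldoc to Gm15966 and Pigs. In the list as a whole 47.7% were intronic, 5.71% exonic, 4.10% in promoters and 42.5% intergenic, and near protein-coding genes 70.2%, 8.53%, 5.63% and 15.6%. Of the 22, 19 aligned nowhere else at 100 bp and 95% identity, a search that misses shorter or more diverged copies. The exceptions were the upstream DMRs of Tcf7l2 and Mertk and the one in Slc1a2, which has 85 alignments, itself included, the longest elsewhere over 108 of its 1316 bp.

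Further glial genes also had DMRs in both directions. The 72 other genes of the 3 classes had a median length of 19.3 kb, beside 16.8 kb for the 39 described above. Of the 72, 32 (44.4%) had a DMR within 10 kb, beside 28.6% of all protein-coding genes, a share that rises with gene length. Of their DMRs 28 of 42 were higher in MMS, near the 62.6% of the list. Other oligodendrocyte lineage genes had a DMR in 16 of 25, with 14 of 19 DMRs higher in MMS. Among them Nfasc, an adhesion gene of the axon initial segment and node, had log2 differences of 2.21 and 3.39, and Cldn11, the tight junction gene of myelin, had 2.29 and 2.24. Sox8, a partner of Sox10, had 2.18 inside the gene and -2.24 upstream. The phosphatase gene Ptprz1 had 3.11 and the proteoglycan gene Cspg5 -3.61. Other astrocyte genes had one in 6 of 22, with 5 of 10 DMRs higher in MMS. Nfib, a factor of gliogenesis, had 4.56, 3.11, 2.74 and -1.95 over its 416 kb, and the potassium channel gene Kcnj10 had -2.95. Other microglial genes had one in 10 of 25, with 9 of 13 higher in MMS. Itgam, the integrin CD11b, had 4.54 and -1.65, Runx1 3.48 and -1.20, Spi1 (PU.1) 2.23, Irf8 -1.83 and the protease gene Ctss -1.52. The differences of 3.39 at Nfasc, 4.56 at Nfib and 4.54 at Itgam were against control at its lowest value, and that of 3.11 at Ptprz1 against a control mean within 0.5 of it. No difference between these lists was tested.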

How the data were processed

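MeDIP-seq libraries of hypothalamic DNA (3 control and 3 MMS pools, with 2 inputs and 1 IgG) were aligned by the authors to mm10 with Torrent Suite, peaks were called with MACS2 over inputs with the human genome size setting, and groups were compared in DiffBind with DESeq2 and edgeR. The deposited values used are log2 group means of normalised reads, normalised by the authors to pooled input with IgG subtracted. Columns headed untreated were taken as control and those headed treated as MMS. The remaining columns hold the authors' own fold change, p-value and false discovery rate and were not used. The study's methods give reads per sample, but the means used here hold no counts per library, so no counting interval was computed. Each DMR was overlapped with GENCODE vM21 spans plus 10 kb (1 bp sufficed). Features followed the DMR's centre, a promoter running from 1000 bp upstream to 100 bp downstream, and gene positions the APPRIS principal transcript. CpG and repeat content came from GRCm38.p6, and alignments from BLAST 2.17.0. The overlap code was tested on simulated regions. Members and lists were chosen with earlier results of these data known. Every member is named, and from the other lists up to 5 genes with a DMR inside the span, by number of DMRs and then by size of difference. One gene this rule picks is not reported here. Sequences shown are the largest differences per class and direction and promoter DMRs, without chromosome 18. Python 3.11.15, pandas 2.3.3 and pysam 0.24.0 were used.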

Additional observations from a re-analysis of the deposited data

How the results depend on the processing

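Glial genes with a DMR numbered 14 and moved to 9 for gene spans alone, to 9 for DMRs with a log2 difference of at least 2, and to 28 within 50 kb. The share of all protein-coding genes was not computed under these altered rules. These counts therefore have no background beside them and say nothing particular about glial genes. The 22 DMRs became 14 for spans alone and 50 within 50 kb. DMRs with a group near its lowest value were 7, and were 4 without Tcf7l2, 3 without DMRs under 200 bp and 16 within 50 kb. The share higher in MMS was 59.1% (95% Wilson interval over DMRs 38.7% to 76.7%). That interval treats the 22 DMRs as independent, though several share a gene, and holds no spread between pools. The share was 78.6% for spans alone and 80.0% within 2 kb, and 72.2% with each DMR counted only for its nearest protein-coding gene. It was 46.7% without DMRs near the lowest value. Without Tcf7l2, or without DMRs under 200 bp, as many DMRs were higher in control as in MMS. The median difference at glial genes over both directions, 2.41, was -1.13 without DMRs near the lowest value and 0.23 without Tcf7l2 or without DMRs under 200 bp. Over the whole list, control was near its lowest value in 4274 of 8105 DMRs higher in MMS. MMS was near its lowest value in 223 of 4844 higher in control. Leaving out such DMRs therefore takes mostly DMRs higher in MMS from the whole list as well. RefSeq spans left 14 genes and 22 DMRs, with 2 at Aldh1l1 and 3 at Slc4a4. Leaving out Tcf7l2 and leaving out DMRs with copies elsewhere were chosen after the data were seen. Leaving out each library was not run, as no value per library was used. No paired analysis was possible because the group columns are means of 3 pools. With group means of 3 pools and no counts per library, the precision of each difference could not be given.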

Other observations

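Genes of the other cell types in the hypothalamus were counted by the same rule, by which 28.6% of all protein-coding genes had a DMR and 62.6% of listed DMRs were higher in MMS. Median gene lengths were 12.7 kb for the tanycyte and ependymal, 52.2 kb for the neuronal and 44.3 kb for the endothelial and mural genes, and longer genes hold a DMR more often. Of 12 genes of tanycytes and ependymal cells, which line the third ventricle, 6 had a DMR within 10 kb, with 10 of 12 DMRs higher in MMS. Col23a1, a membrane collagen gene of 294 kb, held 7 of these, each in an intron and higher in MMS, with log2 differences from 1.70 to 4.05. Lhx2, a homeobox factor gene, had 4.04 in intron 3, and Tmem212 had 2.21. The DMRs higher in control lay downstream of Foxj1, a factor of ciliated cells (-1.94), and of Crym (-1.36), genes with no DMR inside their spans that were named after the values were seen. Of 19 neuronal genes 7 had a DMR, with 8 of 12 higher in MMS. Rbfox3, which encodes the neuronal marker NeuN, had 5, with differences of 5.38, 4.07, 3.84, 2.38 and -2.24. Syt1 and Celf4, for a calcium sensor of synaptic vesicles and an RNA-binding protein, each had 1 in either direction, 4.51 and -2.29 at Syt1 and 3.70 and -1.18 at Celf4. Syn1, a synaptic vesicle gene, had 2.28. The neurofilament genes Nefl and Nefm share 1 DMR between them on chromosome 14 from 68080421 to 68080985, with log2 means of 4.44 in control and -0.24, the lowest value, in MMS. Those genes hold no DMR inside their spans and were named after the values were seen. Snap25, of the vesicle fusion machinery, had 3.86. Control was at its lowest value in 3 of the 7 DMRs of Col23a1 (4.05, 3.45 and 3.38), at Lhx2 and Snap25, in the DMRs higher in MMS at Syt1 and Celf4, and in those of 5.38, 4.07 and 3.84 at Rbfox3, so the size of these differences is set in part by that value.

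Of 12 endothelial and mural genes 5 had a DMR, with 3 of 7 higher in MMS. Pecam1 and Pdgfrb each had a pair, all higher in control, with differences of -2.05 and -1.88 at Pecam1 and -2.16 and -1.82 at Pdgfrb. Flt1 and Tek, receptor genes of endothelial cells, had 3.70, with control at its lowest value, and 3.24. The DMR of -2.16 past the end of Pdgfrb is the one nearest to Csf1r, the microglial gene just outside the limit of 10 kb.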
